A study of Mus musculus with 4 samples.

Results

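The 32 imprinted genes described here were counted in single mouse mesenchymal progenitor cells (MPC) that expressed wild-type histone H3 or the H3R26C mutant, with and without an earlier pulse of the DNA methyltransferase inhibitor 5-azacytidine (5-Aza). They were taken by name from the 32285 genes of the deposited tables: H19, Igf2, Peg3, Plagl1, Mest, Dlk1, Meg3, Rian, Mirg, Cdkn1c, Grb10, Zim1, Peg10, Sgce, Snrpn, Ndn, Magel2, Impact, Kcnq1ot1, Igf2r, Airn, Phlda2, Slc22a18, Nnat, Gnas, Nap1l5, Zdbf2, Dio3, Usp29, Asb4, Ube3a and Osbpl5. Of these, 21 reached a mean of at least 1 CPM (count per 1000000 UMIs) over the 4 libraries, as did 12482 of all 32285 genes. The other 11 stayed below that level, and Magel2 had 0 UMIs (unique molecular identifiers, 1 for each captured RNA molecule) in every library.

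Imprinted genes are read mainly from the copy inherited from 1 parent. The choice is held by DNA methylation at imprinting control regions, which is set in the germ line and copied at each cell division by the maintenance methyltransferase Dnmt1, and in some loci by long non-coding RNAs and by Polycomb repression. Many imprinted genes act on growth and on the commitment of mesenchymal cells, and H19, Igf2, Dlk1, Meg3 and Peg3 have long been studied in muscle. 5-Aza is built into DNA, traps Dnmt1 and so lowers methylation in dividing cells.

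All cells were C3H 10T1/2, a clonal mouse embryo line, and all carried a lentiviral transgene for an epitope-tagged human H3.1 under the EF1 promoter, kept by puromycin selection, beside their own histone H3 genes. The groups were H3WT with the vehicle DMSO, H3WT with 5-Aza, H3R26C with DMSO and H3R26C with 5-Aza, where H3R26C has cysteine in place of the arginine at position 26 of the transgene. After a brief 5-Aza pulse, which lets these cells form muscle, fat and other mesenchymal cells, the cultures were kept for weeks and then profiled by droplet single-cell RNA-seq; the collection day of the DMSO cultures is not given in the sources used here. Each group was 1 library, so a library and its condition cannot be told apart, no difference has a replicate check, and every interval below covers counting error only.

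The filter kept 3710, 5993, 4727 and 7619 cells in H3WT DMSO, H3WT 5-Aza, H3R26C DMSO and H3R26C 5-Aza, with 84060490 to 110712425 UMIs per library and median depths of 22420, 13149, 16598 and 13123 UMIs per cell. Between 1.90% and 2.54% of a library's kept barcodes also occurred in another library. The mesenchymal progenitor markers Col1a1, Pdgfra, Pdgfrb, Ly6a, Thy1 and Eng were present in all 4 libraries, at a summed 4088 to 5020 CPM for the list of 7, of which Nt5e was at 0 in both DMSO libraries. The 13 skeletal muscle markers summed to 28.7 and 22.7 CPM in H3WT and H3R26C DMSO and to 1606 and 2104 CPM after 5-Aza, while Actc1 was at 0 in both DMSO libraries and Myog was at 0 in H3R26C DMSO. The genotype cannot be checked in these counts, which do not separate the human transgene.

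Neither the parental origin of an RNA nor its isoform can be read from these counts, so each value below is the sum over both alleles and all isoforms. Levels are summed UMIs per 1000000 UMIs of the library or cell class, and folds are ratios of these levels with no pseudocount. A gene is counted as higher or lower where its level differed at least 2-fold. The share of all tested genes that did so is given beside each count, except for counts under alternative settings.

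The promoters of 4 members on which the results turn are shown here, because CpG dinucleotides near such starts carry the methylation that 5-Aza lowers. They come from RefSeq windows on GRCm38.p6 and are cut to the bases before the start that lie outside annotated exons. Where a gene had several windows, the window with most CpG is shown. The other Meg3 window held 0 CpG, and the other Mest windows held 7 and 14. Capitals mark CpG. Peg3 (chr7:6730432-6730577, minus strand) holds 5 CpG in 146 bases, Mest (chr6:30737800-30738049, plus strand) 14 in 250, Dlk1 (chr12:109452573-109452822, plus strand) 8 in 250 and Meg3 (chr12:109540746-109540995, plus strand) 10 in 250.
Peg3: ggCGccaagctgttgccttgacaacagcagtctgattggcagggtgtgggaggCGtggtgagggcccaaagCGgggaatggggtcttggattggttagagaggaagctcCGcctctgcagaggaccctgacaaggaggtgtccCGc
Mest: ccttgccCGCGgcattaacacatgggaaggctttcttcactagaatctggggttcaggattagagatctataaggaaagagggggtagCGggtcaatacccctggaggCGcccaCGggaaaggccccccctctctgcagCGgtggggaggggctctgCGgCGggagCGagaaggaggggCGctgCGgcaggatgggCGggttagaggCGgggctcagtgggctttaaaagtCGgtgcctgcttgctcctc
Dlk1: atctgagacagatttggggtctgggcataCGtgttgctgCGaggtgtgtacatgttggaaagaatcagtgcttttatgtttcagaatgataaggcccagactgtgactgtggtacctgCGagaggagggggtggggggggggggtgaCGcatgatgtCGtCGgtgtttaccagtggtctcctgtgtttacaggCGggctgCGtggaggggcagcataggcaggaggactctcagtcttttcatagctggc
Meg3: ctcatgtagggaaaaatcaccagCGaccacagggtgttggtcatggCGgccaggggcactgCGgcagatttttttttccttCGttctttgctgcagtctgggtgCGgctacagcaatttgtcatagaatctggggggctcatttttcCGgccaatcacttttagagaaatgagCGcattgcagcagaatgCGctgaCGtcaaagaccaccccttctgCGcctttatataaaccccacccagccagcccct
The Peg3 start lies 164 bases from that of Usp29 on the opposite strand, so that the same stretch lies upstream of both genes. A RefSeq window was found for 27 of the 32 members, in 44 windows of 250 bases, and none was used for Cdkn1c, H19, Impact, Peg10 and Sgce. The members' windows held a median of 10 CpG (range 0 to 40), against 6 over 32851 windows of all genes. The letters TGCCGC, which the imprint-protecting factor Zfp57 binds when methylated, occurred on either strand in 8 of 44 member windows, against 8.68% of all windows; the matches lay at Plagl1, Mest, Meg3, Zim1, Nap1l5, Zdbf2 and Osbpl5. The E-box CAGCTG, which reads the same on both strands and is bound by myogenic factors such as Myod1, occurred in 3 of 44 member windows, against 13% of all. No member window held the core motif of Ctcf, searched on both strands, which 0.0335% of all windows held. These are matches of letters, not measured binding or methylation.

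After 5-Aza, 5 of the 21 members were at least 2-fold higher in H3WT MPC and none was lower, where 6.38% and 0.537% of all tested genes were. In H3R26C MPC, 3 members were higher and 1 was lower, where 8.54% and 4.69% of all genes were. H19, Peg3 and Mest passed 2-fold in both genotypes, Igf2 and Peg10 in H3WT, and Impact fell in H3R26C. Peg3 and Mest reached the level filter only through their 5-Aza levels, so counts that include them depend in part on that filter. The median log2 ratio of the members was 0.09 in H3WT and -0.18 in H3R26C, against 0.04 and -0.04 over all genes, so most members stayed close to the rest of the transcriptome while a few moved far. The plot of levels by library shows these genes together.

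**Figure D1:**
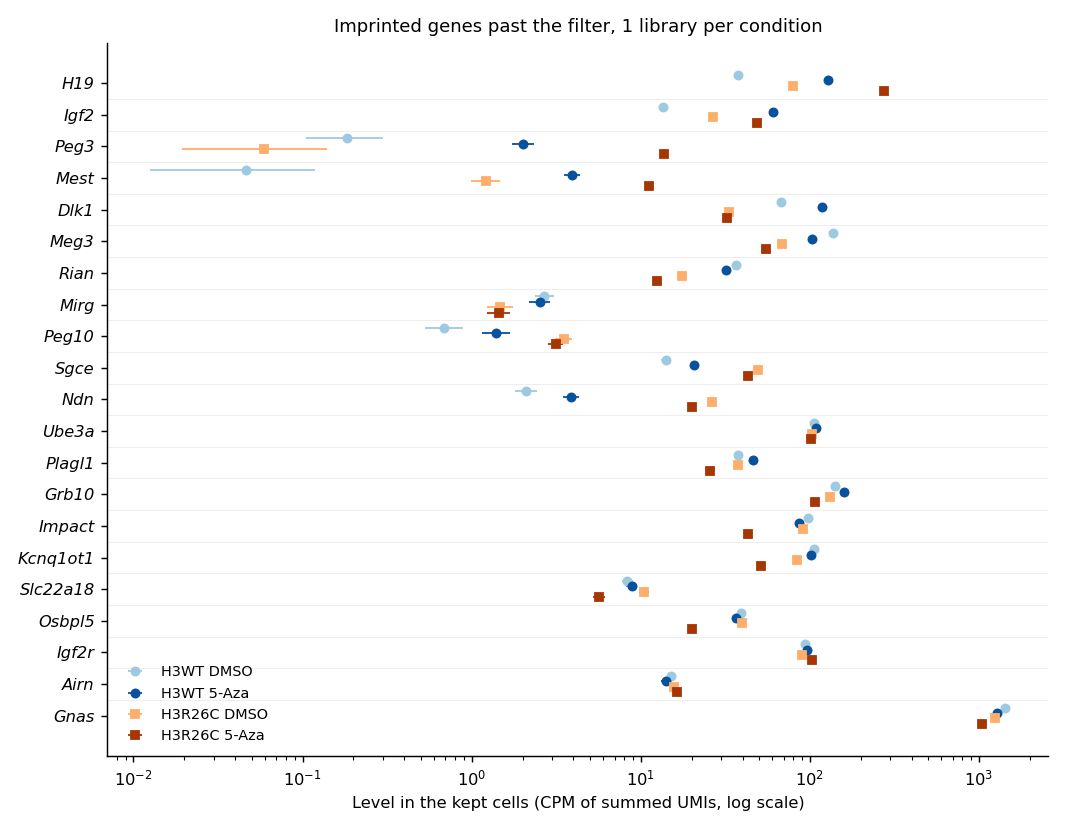
Level of each of the 21 imprinted genes past the filter, in CPM on a log axis, with 1 point per library and the exact Poisson 95% interval of its count. Peg3 and Mest lie lowest in DMSO and above 2 CPM after 5-Aza, Ndn, Sgce and Peg10 lie to the right in both H3R26C libraries, and Dlk1, Meg3 and Rian lie to the left in them.

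The H19/Igf2 locus on chromosome 7 makes a growth factor, Igf2, from the paternal copy and the long non-coding RNA H19 from the maternal copy, under a shared control region that binds Ctcf when unmethylated. H19 was at 37.5 CPM in H3WT DMSO, 128 CPM in H3WT 5-Aza, 79.5 CPM in H3R26C DMSO and 275 CPM in H3R26C 5-Aza. It was therefore higher after 5-Aza and higher in H3R26C on both sides of the treatment. The 5-Aza ratio was 3.43-fold (95% interval 3.29 to 3.56) in H3WT and 3.46-fold (3.37 to 3.55) in H3R26C, and the log2 difference between these responses was 0.01 (-0.03 to 0.06).

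Igf2 was at 13.6, 60.8, 26.8 and 48.6 CPM in the same order of libraries. H3R26C MPC started from the higher level and ended at the lower one. The 5-Aza ratio was 4.46-fold (4.19 to 4.76) in H3WT and 1.81-fold (1.73 to 1.91) in H3R26C, a difference of -1.30 on the log2 scale (-1.38 to -1.22). H19 and Igf2 thus differed in how their responses compared between genotypes, although both were higher after 5-Aza.

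Peg3, a paternally expressed zinc finger gene of the proximal part of chromosome 7, was close to silent in DMSO. It had 16 UMIs in H3WT DMSO and 5 in H3R26C DMSO, against 170 and 1524 after 5-Aza, or 0.184, 2.02, 0.0595 and 13.8 CPM in library order. The ratio was 10.9-fold (6.55 to 19.6) in H3WT and 231-fold (99.0 to 714) in H3R26C, whose wide interval reflects the 5 UMIs of the control. The difference between the responses was 4.40 on the log2 scale (3.39 to 5.42), and Peg3 was the only member of the 21 whose response was at least 2-fold larger in H3R26C. Peg3 passed the level filter only through its level in H3R26C 5-Aza. Asb4, which did not pass it, had a difference of 5.03 (3.58 to 6.49), with 3 UMIs in H3WT 5-Aza. Usp29, which shares its start region with Peg3, had 3, 0, 1 and 3 UMIs in library order, and Zim1, the next gene on the other side, had 2 UMIs in H3R26C 5-Aza and 0 elsewhere.

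Mest, a paternally expressed hydrolase gene of chromosome 6, showed the reverse order of responses. It was at 0.0460 CPM in H3WT DMSO (4 UMIs), 3.94 CPM in H3WT 5-Aza (332 UMIs), 1.21 CPM in H3R26C DMSO (102 UMIs) and 11.2 CPM in H3R26C 5-Aza (1239 UMIs). The H3R26C level was the higher one under both treatments. The ratio was 85.5-fold (33.1 to 316) in H3WT and 9.22-fold (7.53 to 11.4) in H3R26C, a log2 difference of -3.21 (-4.22 to -2.21) that rests on the 4 UMIs of H3WT DMSO and turned to 0.22 with a pseudocount of 1 CPM.

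Ndn, a paternally expressed Necdin gene of the Prader-Willi region, and the neighbours Peg10 and Sgce, a retrotransposon-derived gene and the epsilon-sarcoglycan gene that share a control region on chromosome 6, differed more by genotype than by treatment. Ndn was at 2.10, 3.88, 26.3 and 20.1 CPM, Sgce at 14.0, 20.8, 49.2 and 43.4 CPM, and Peg10 at 0.691, 1.40, 3.52 and 3.13 CPM, each in library order. For all 3 genes both H3R26C libraries lay above both H3WT libraries. In H3WT the 5-Aza ratios were 1.85-fold for Ndn, 1.48-fold for Sgce and 2.03-fold for Peg10 (1.47 to 2.81), and in H3R26C they were 0.764, 0.882 and 0.890.

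The Dlk1-Meg3 locus on chromosome 12 makes Dlk1, a membrane ligand that restrains adipogenesis, from the paternal copy, and the non-coding RNAs Meg3, Rian and Mirg from the maternal copy. Dlk1 was at 67.8 CPM in H3WT DMSO, 118 CPM in H3WT 5-Aza, 33.2 CPM in H3R26C DMSO and 32.2 CPM in H3R26C 5-Aza. Meg3 was at 137, 103, 68.5 and 54.7 CPM, and Rian at 36.4, 31.8, 17.5 and 12.4 CPM. None of the 4 genes of the locus changed 2-fold with 5-Aza in either genotype, and both H3R26C libraries were below both H3WT libraries for all of them, including Mirg at 2.69, 2.53, 1.48 and 1.45 CPM. Dlk1 was 1.74-fold higher (1.68 to 1.80) after 5-Aza in H3WT and 0.970-fold (0.923 to 1.02) in H3R26C. In H3WT the value of the paternal gene lay above that of DMSO while those of the maternal genes lay below it, all within 2-fold. Dio3, at the far end of the locus, had 1 UMI in all.

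Impact, a paternally expressed regulator of the translational stress response, fell by 1.08 on the log2 scale after 5-Aza in H3R26C. Impact was the 1 member of 21 that was lower there, close to the 4.69% of all genes that were. It was at 97.4, 85.9 and 90.6 CPM in H3WT DMSO, H3WT 5-Aza and H3R26C DMSO, and at 42.9 CPM in H3R26C 5-Aza, which stood below the other libraries. Osbpl5, a lipid transfer protein gene, was likewise lowest in H3R26C 5-Aza, at 39.2, 36.5, 39.5 and 20.01 CPM, as were Kcnq1ot1, the non-coding RNA that silences its domain in cis, at 106, 102, 83.7 and 51.5 CPM, and the transporter gene Slc22a18 at 8.31, 8.86, 10.5 and 5.68 CPM. Their ratios in H3R26C were 0.506 (0.480 to 0.534), 0.616 (0.595 to 0.638) and 0.541 (0.488 to 0.60), all short of 2-fold. Osbpl5, Kcnq1ot1 and Slc22a18 lie in the same domain of chromosome 7, where the growth inhibitor gene Cdkn1c was near silent (7, 43, 6 and 35 UMIs) and Phlda2 had 34 UMIs in H3R26C 5-Aza against 1, 0 and 0 elsewhere.

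The remaining members past the level filter stayed within 2-fold in every comparison between libraries. Igf2r, the receptor that clears Igf2, was at 93.5, 96.7, 90.4 and 103 CPM, and its antisense non-coding RNA Airn at 15.1, 14.0, 15.7 and 16.4 CPM, both nearly level across the 4 libraries. Ube3a, a ubiquitin ligase imprinted in neurons, was at 102 to 108 CPM, and Gnas, the stimulatory G protein locus whose isoforms are merged here, at 1432, 1274, 1248 and 1038 CPM. The receptor adaptor gene Grb10 was at 141, 160, 132 and 107 CPM and the zinc finger gene Plagl1 at 37.7, 46.3, 37.7 and 25.7 CPM, each lowest in H3R26C 5-Aza.

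Without an inducer, 5 members were at least 2-fold higher in H3R26C than in H3WT and 4 were lower, where 3.79% and 1.44% of all tested genes were. The higher genes were Mest at 26.4-fold (9.98 to 98.6), Ndn at 12.6-fold (10.8 to 14.7), Peg10 at 5.10-fold (3.85 to 6.85), Sgce at 3.51-fold (3.29 to 3.74) and H19 at 2.12-fold (2.03 to 2.21), and Igf2 at 1.97-fold (1.83 to 2.11) was just under the threshold. The lower genes were Rian at 0.481 (0.452 to 0.512), Dlk1 at 0.489 (0.467 to 0.512), Meg3 at 0.50 (0.484 to 0.516) and Peg3 at 0.323 (0.0925 to 0.923), of which Peg3 rests on 5 against 16 UMIs and Meg3 lies at the threshold. The median log2 ratio was -0.03 for the members and 0.04 for all genes.

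After 5-Aza, 6 members were higher and 3 were lower in H3R26C, where 5.66% and 4.17% of all genes were. Peg3 was 6.83-fold higher (5.83 to 8.05), Ndn 5.18-fold (4.61 to 5.84), Mest 2.84-fold (2.52 to 3.22), Peg10 2.24-fold (1.81 to 2.78), H19 2.14-fold (2.09 to 2.19) and Sgce 2.09-fold (1.97 to 2.20). Dlk1 stood at 0.273 (0.263 to 0.284), Rian at 0.391 (0.366 to 0.418) and Impact at 0.499 (0.481 to 0.518). H19, Mest, Ndn, Peg10 and Sgce were thus on the higher side, and Dlk1 and Rian on the lower side, in both treatments, whose comparisons use different libraries. Peg3 was on opposite sides, but it passed the level filter only through its level in H3R26C 5-Aza. Its place among the 6 higher members therefore depends on that filter.

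Among the 21 members past the level filter, the response to 5-Aza was at least 2-fold larger in H3R26C than in H3WT for 1, Peg3. That member passed the filter only through its level in H3R26C 5-Aza. The response was at least 2-fold smaller for 4, Mest, Igf2, Ndn and Peg10, where 3.41% and 3.41% of all genes were larger and smaller. The log2 differences of Ndn and Peg10 were -1.28 (-1.47 to -1.09) and -1.19 (-1.53 to -0.84). Over the 21 members the median difference was -0.65 against -0.10 over all genes, and 15 of 21 were below 0. The median of all genes was itself below 0, and the share of all genes below 0 was not counted. All 5 members counted, Peg3, Mest, Igf2, Ndn and Peg10, are listed as paternally expressed. The median was -0.85 over the 11 members so listed and -0.08 over the 10 listed as maternally expressed. Slc22a18 at -0.98 and Osbpl5 at -0.88, both listed as maternally expressed, fell just short of being counted. So did Impact at -0.90, Plagl1 at -0.85 and Dlk1 at -0.84, listed as paternally expressed. The make-up of the counted members therefore depended on the threshold. These labels are background knowledge, and the parental copy in use was not read here. The maternal list includes Ube3a, imprinted in neurons, and Gnas, whose isoforms are merged. The plot of the response in one genotype against the other places each member.

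**Figure D2:**
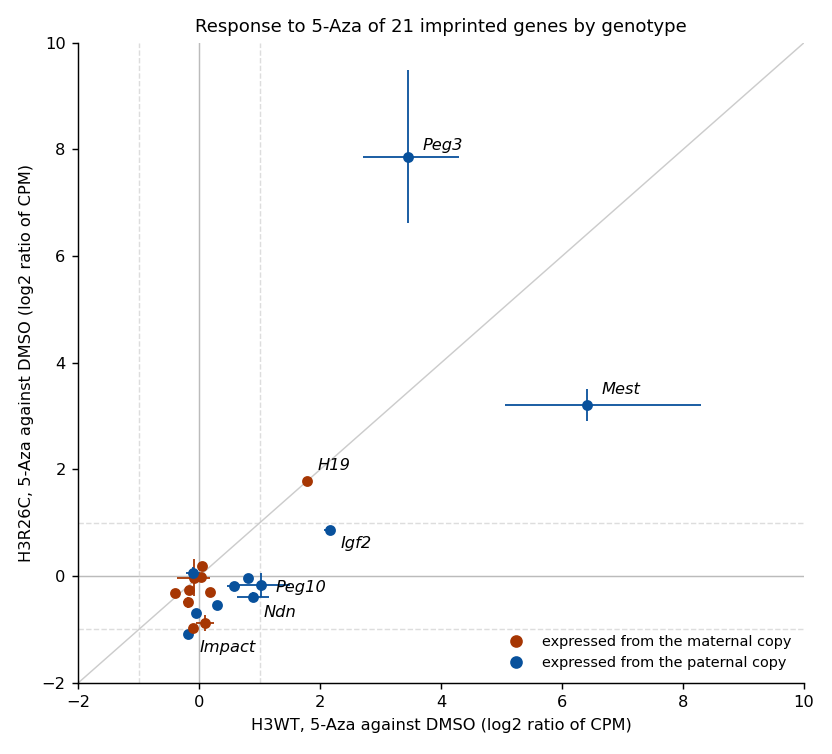
Log2 ratio of 5-Aza to DMSO for the 21 imprinted genes, with H3WT on the x axis and H3R26C on the y axis, bars for 95% counting intervals, dashed lines at 2-fold and a diagonal of equal response. H19 lies on the diagonal at 1.78 and 1.79, Peg3 far above it and Mest, Igf2, Ndn and Peg10 below it.

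The fraction of cells with at least 1 UMI was compared after thinning each cell to 5000 UMIs, since depth differed between libraries. H19 was found in 5.53%, 20.8%, 10.0% and 34.7% of cells in library order (10.5%, 36.6%, 15.3% and 55.5% without thinning), and Igf2 in 3.91%, 13.6%, 5.20% and 14.6% (8.6%, 25.4%, 9.03% and 25.8%). Peg3 was found in 0.11%, 0.77%, 0.02% and 2.78% of cells (0.32%, 1.47%, 0.11% and 5.16%) and Mest in 0.05%, 0.83%, 0.32% and 1.88% (0.11%, 1.33%, 0.74% and 3.16%). Both genes were therefore seen in few cells even where their level was highest. Muscle markers were also counted in cells that were not muscle-like, at 333 and 352 CPM in H3WT and H3R26C 5-Aza, against 28.7 and 22.7 CPM in DMSO. The part of free RNA in the shares of cells with a UMI was not tested.

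Ndn was found in 1.08%, 1.72%, 10.9% and 8.15% of thinned cells (3.45%, 3.62%, 26.8% and 17.0%), with a mean of 1.17 and 1.18 UMIs per positive cell in the H3R26C libraries. Meg3 was found in 30.5%, 22.7%, 16.9% and 15.4% (44.6%, 32.5%, 24.9% and 22.4%) and Impact in 38.7%, 34.7%, 36.9% and 19.4% (84.4%, 65%, 75.5% and 42.5%). Dlk1 was found in 11.3%, 12.5%, 5.73% and 5.21% of cells (22.2%, 18.1%, 8.80% and 7.86%). For these 8 genes the shares had the same order over the libraries as the levels, except that the share of Igf2 after 5-Aza was not lower in H3R26C.

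**Figure D3:**
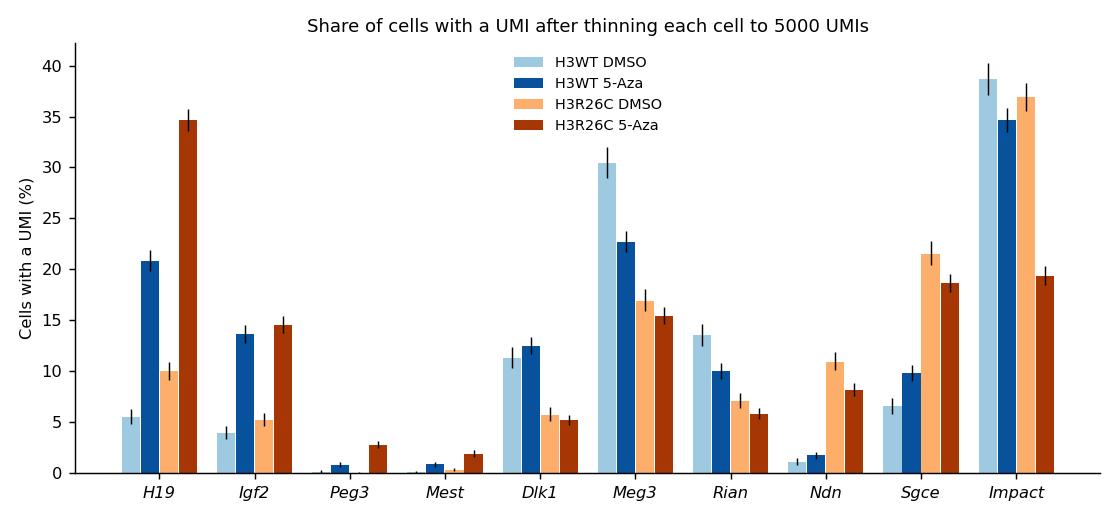
Share of cells with at least 1 UMI of 10 imprinted genes, in percent, with each cell thinned to 5000 UMIs. Bars stand for the 4 libraries and lines for exact binomial 95% intervals; H19 reaches 34.7% in H3R26C 5-Aza, Ndn 10.9% in H3R26C DMSO, and Peg3 and Mest stay under 3% in each library.

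H19, Igf2, Dlk1 and Mest were concentrated in few cells. In H3WT DMSO, 35 cells held 50% of the H19 UMIs, with up to 109 in a cell, 40 cells held that share of Igf2, and 76 held that share of Dlk1. In H3R26C DMSO the numbers were 84, 50 and 51 cells. Kcnq1ot1 was spread over 724 and 827 cells for the same share, and Meg3 over 363 and 260. In H3WT 5-Aza, 10 cells held 50% of the Mest UMIs, and in H3R26C 5-Aza 25 did. A rise in the level of Mest was therefore a matter of 80 and 241 cells with any UMI.

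Some neighbouring genes of a locus were found in the same cells, whether they are read from the same or from opposite parental copies. Outside muscle-like cells, Meg3 and Rian, both read from the maternal copy, were found together in 358, 412, 228 and 295 thinned cells in library order, which is 2.34, 3.13, 4.03 and 4.26 times the number that the product of their shares gives. H19 and Igf2, read from opposite copies, were found together 4.24 and 3.74 times as often as that product in H3WT and H3R26C DMSO and 1.70 and 1.39 times as often after 5-Aza. Dlk1 and Meg3, also read from opposite copies, stood at 1.56, 1.18, 3.01 and 2.15. For Peg10 and Sgce, both read from the paternal copy, the ratio was 1.28, 0.896, 1.07 and 1.60, from 26 cells or fewer. Igf2 and Dlk1, which lie on different chromosomes, stood at 0.977, 1.23, 1.91 and 1.73 in library order. H19 and Dlk1, also on different chromosomes, stood at 1.08, 1.04, 1.51 and 1.40. Joint detection above the product was therefore not particular to neighbours of a locus. Each ratio describes the cells of 1 library and has no test.

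The cells were also divided into 11 clusters, lettered from A to K by size, from genes other than the members. In H3R26C DMSO, H19 was at 121 CPM in cluster A, the largest, led by Colec10 and Eln, at 124 CPM in the Igfbp5-rich cluster C and at 12.5 CPM in the Tmem176b-rich cluster D, against 36.1, 106 and 18.1 CPM in the same clusters of H3WT DMSO. Ndn was at 29.7, 26.4 and 24.0 CPM in these clusters of H3R26C DMSO, and at 2.34, 0.415 and 1.52 CPM in those of H3WT DMSO. The difference of Ndn between genotypes was therefore present in each cluster compared, at 12.7-fold in A, 63.7-fold in C (where H3WT had 2 UMIs) and 15.8-fold in D.

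Within clusters the H19 genotype difference in DMSO was not uniform, at 3.34-fold in A, 1.17-fold in C and 0.691-fold in D. The Meg3 ratio was 0.685 in A, 0.956 in C and 0.180 in D, and that of Dlk1 0.557 in A, 3.23 in C and 0.110 in D. Sgce was higher in H3R26C in all 3 clusters, at 3.40, 2.96 and 4.62-fold. The libraries differed in their make-up: cluster A held 3110, 3843, 2272 and 293 cells in library order, and cluster B 18, 877, 39 and 4272, so that the part of this shift in the whole-library differences was not tested beyond the values within clusters. In the response to 5-Aza within cluster A of H3WT, H19 was 2.31-fold, Igf2 3.09-fold, Mest 33.0-fold and Peg3 3.43-fold higher. In cluster A of H3R26C the ratios were 2.48, 2.27, 3.09 and 35.1. The largest of these rest on few UMIs. Mest had 3 in cluster A of H3WT DMSO and 72 after 5-Aza. Peg3 had 5 in cluster A of H3R26C DMSO and 16 after 5-Aza. Mest was not highest in cluster A. In cluster C it was at 19.3 CPM (145 UMIs) in H3WT 5-Aza, with 0 UMIs in H3WT DMSO. In cluster C of H3R26C it was at 30.9 CPM after 5-Aza and 2.67 CPM in DMSO.

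Skeletal muscle-like cells were found only after 5-Aza: 236 of 5993 cells in H3WT (3.94%), 398 of 7619 in H3R26C (5.22%) and 0 in the DMSO libraries. A count of 0 allows shares up to 0.0809% there for H3WT and 0.0635% for H3R26C. These are shares of kept cells. In H3WT 5-Aza the barcodes left out by the cell filter held 124403 muscle marker UMIs, against 108740 in the muscle-like cells. In H3R26C 5-Aza the numbers were 88498 and 196780. The shares therefore do not compare the muscle content of the 2 cultures. The muscle-like cells formed 2 of the 11 clusters. Cluster H, with 179 H3WT and 339 H3R26C cells, was led by Myog and Mylpf, and cluster J, with 57 and 59 cells, by Ttn and Neb, with 1 of the 13 markers among its top 10 genes. Muscle-like cells had medians of 15476 and 19490 UMIs in H3WT and H3R26C, against 13108 and 12949 in the other cells, and no doublets were removed. The summed marker level was 27422 and 24317 CPM inside muscle-like cells, and 333 and 352 CPM in the other cells of these libraries, against 28.7 and 22.7 CPM in DMSO, so muscle marker UMIs were also counted outside the muscle-like cells.

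In muscle-like cells of H3WT, 8 members were at least 2-fold higher than in the other cells and 3 were lower, where 7.08% and 14.8% of all genes were. In H3R26C, 4 were higher and 8 were lower, where 5.53% and 16.8% of all genes were. H19, Igf2 and Peg3 were higher in both genotypes. The median log2 ratio of the members was 0.28 in H3WT and -0.56 in H3R26C, against -0.20 and -0.26 over all genes.

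H19 was at 1171 CPM in muscle-like and 77.0 CPM in other cells of H3WT, and at 2097 and 131 CPM in H3R26C. The ratios, 15.2-fold (14.6 to 15.8) and 16.0-fold (15.6 to 16.4), were nearly the same, and 88.1% and 98.0% of muscle-like cells had an H19 UMI (72.5% and 93.2% after thinning, against 18.7% and 31.4% of other cells). Igf2 was at 514 and 38.4 CPM in H3WT and at 247 and 33.0 CPM in H3R26C, or 13.4-fold (12.6 to 14.2) and 7.49-fold (7.08 to 7.92) higher. Peg3 was at 30.0 and 0.634 CPM in H3WT and at 146 and 3.35 CPM in H3R26C, or 47.3-fold (33.8 to 67.0) and 43.5-fold (38.5 to 49.2) higher.

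Muscle-like cells therefore held far more of these RNAs than their share of a library. They held 42.9% of the H19, 39.8% of the Igf2 and 70.0% of the Peg3 UMIs of H3WT 5-Aza, beside 4.70% of all UMIs, and 55.8%, 37.1% and 77.4% in H3R26C 5-Aza, beside 7.31% of all UMIs. Cdkn1c, the cell cycle inhibitor, had 38 of its 43 UMIs in muscle-like cells of H3WT, of which 29 lay in a single cell, and 13 of 35 in H3R26C. Zdbf2 had 19 of 21 and 8 of 17, and Snrpn 1 of 2 and 8 of 8. A fall in the number of cells of a type and a fall in RNA per cell cannot be told apart in the library sums.

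Outside muscle-like cells the 5-Aza response was smaller for H19, Igf2 and Peg3 and nearly the same for Mest in H3WT. H19 was 2.05-fold higher (1.97 to 2.14) in H3WT and 1.65-fold (1.60 to 1.70) in H3R26C, and Igf2 2.82-fold (2.64 to 3.02) and 1.23-fold (1.17 to 1.30). Mest was 87.3-fold (33.8 to 322) and 6.99-fold (5.69 to 8.66) higher, and Peg3 3.44-fold (1.93 to 6.47) and 56.4-fold (23.9 to 175). Peg10 in H3WT stood at 1.35-fold (0.949 to 1.93), no longer past 2-fold, and Impact in H3R26C at 0.489 (0.472 to 0.508). The ratio of a member to the muscle markers differed between these sets of cells. H19 was at 4.27 UMIs per 100 muscle marker UMIs in muscle-like cells of H3WT and at 23.2 in the other cells, and at 8.62 and 37.3 in H3R26C. For Peg3 the same numbers were 0.109 and 0.191, and 0.60 and 0.952. The part of free RNA in the levels of H19, Igf2 and Peg3 outside muscle-like cells was not tested.

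The genotypes also differed outside muscle-like cells of the 5-Aza libraries. Ndn was 5.43-fold (4.82 to 6.13), Peg3 5.28-fold (3.93 to 7.24), Peg10 3.47-fold (2.69 to 4.52), Sgce 2.14-fold (2.02 to 2.26) and Mest 2.11-fold (1.85 to 2.4) higher in H3R26C, and H19 1.70-fold (1.65 to 1.76). Dlk1 stood at 0.283 (0.272 to 0.294), Rian at 0.523 (0.488 to 0.561) and Impact at 0.508 (0.489 to 0.527). Of the members called in the whole libraries, H19, Rian and Impact were within 2-fold here. Asb4, a placental and vascular gene below the level filter, had 147 UMIs outside muscle-like cells of H3R26C 5-Aza against 3 in H3WT 5-Aza, and its level was highest in cluster B, led by Slpi and Spp1, at 2.14 CPM.

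**Figure D4:**
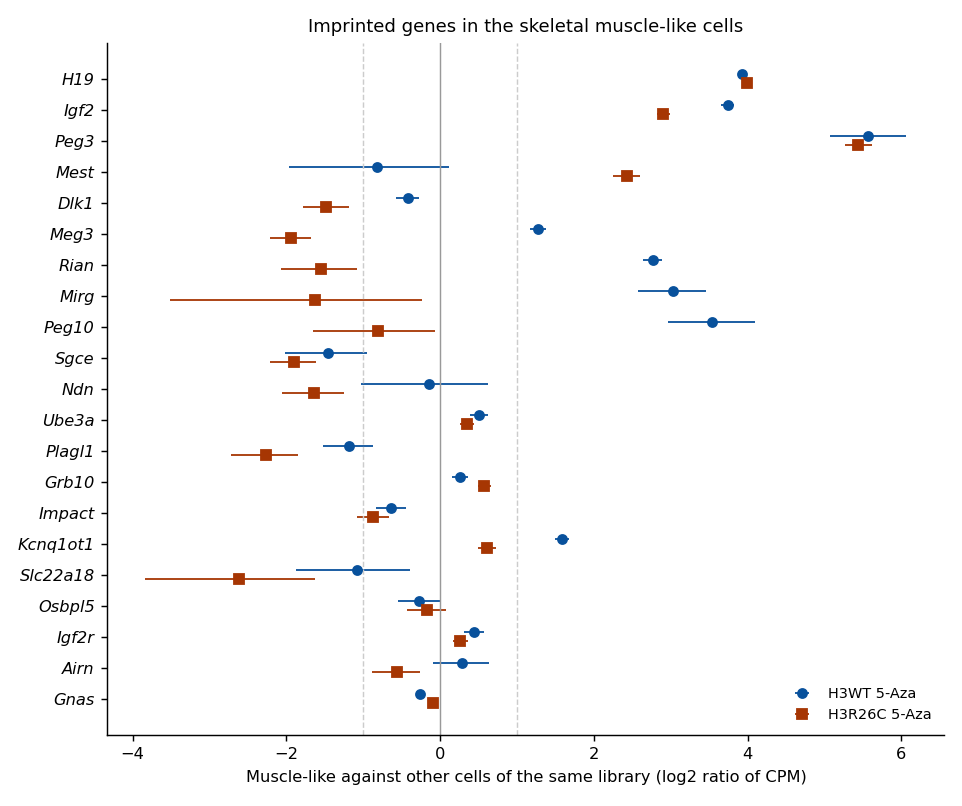
Log2 ratio of the level in skeletal muscle-like cells to that in the other cells of the same 5-Aza library, for 21 imprinted genes, with 95% counting intervals and dashed lines at 2-fold. H19, Igf2 and Peg3 lie to the right in both genotypes, while Meg3, Rian and Mirg lie to the right in H3WT and to the left in H3R26C.

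Meg3, Rian and Mirg, but not Dlk1, went in opposite directions in the pooled muscle-like cells of the 2 genotypes. Meg3 was at 235 CPM in muscle-like and 97.0 CPM in other cells of H3WT, and at 15.1 and 57.9 CPM in H3R26C. Rian was at 170 and 25 CPM in H3WT and at 4.45 and 13.1 CPM in H3R26C, and Mirg at 15.4 and 1.89 against 0.494 and 1.52 CPM. The ratios were 2.42-fold, 6.80-fold and 8.13-fold in H3WT and 0.261, 0.341 and 0.325 in H3R26C. Dlk1 was lower in muscle-like cells of both, at 0.747 (0.669 to 0.830) and 0.359 (0.290 to 0.439).

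The higher Meg3, Rian and Mirg levels of H3WT lay in few cells of cluster J. Meg3 was at 55.9 CPM in cluster H and 923 CPM in cluster J, Rian at 28.3 and 715 CPM and Mirg at 3.18 and 62.5 CPM. The 5 cells of cluster J with most Meg3 held 77.7% of its 754 Meg3 UMIs, 85.1% of its 584 Rian UMIs and 82.4% of its 51 Mirg UMIs, with up to 214 Meg3 and 187 Rian UMIs in a cell and 0 Peg3 UMIs. The share of thinned cells with a Meg3 UMI was 14.0% in muscle-like and 23.1% in other cells of H3WT, which goes against the levels, and with cluster H alone the Meg3 log2 ratio was -0.79. The direction for Meg3 in H3WT muscle-like cells therefore depended on cluster J.

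Peg3 and Kcnq1ot1 were also higher in cluster J than in cluster H, and in both genotypes. Peg3 was at 10.8 CPM in H and 104 CPM in J of H3WT and at 86.4 and 712 CPM in H3R26C, or 9.64-fold (6.41 to 14.8) and 8.24-fold (7.33 to 9.25) higher. The clusters were not alike in the 2 genotypes. Their summed muscle markers were at 8765 CPM in J of H3WT and 19105 CPM in J of H3R26C, and at 32260 and 24864 CPM in H. The part of this in the values between genotypes was not tested. Kcnq1ot1 was at 95 and 995 CPM in H3WT and at 47.4 and 348 CPM in H3R26C, and 36 of the 57 H3WT cells of cluster J had at least 10 of its UMIs. H19 went the other way, at 1346 and 498 CPM in H3WT and 2218 and 946 CPM in H3R26C, as did Gnas at 1225 and 485 and at 1030 and 458 CPM. Peg10 and Cdkn1c were mostly in cluster H of H3WT, with 41 against 2 and 38 against 0 UMIs, and Mest in cluster H of H3R26C, with 367 against 2 UMIs, of which 89.9% lay in 10 cells.

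**Figure D5:**
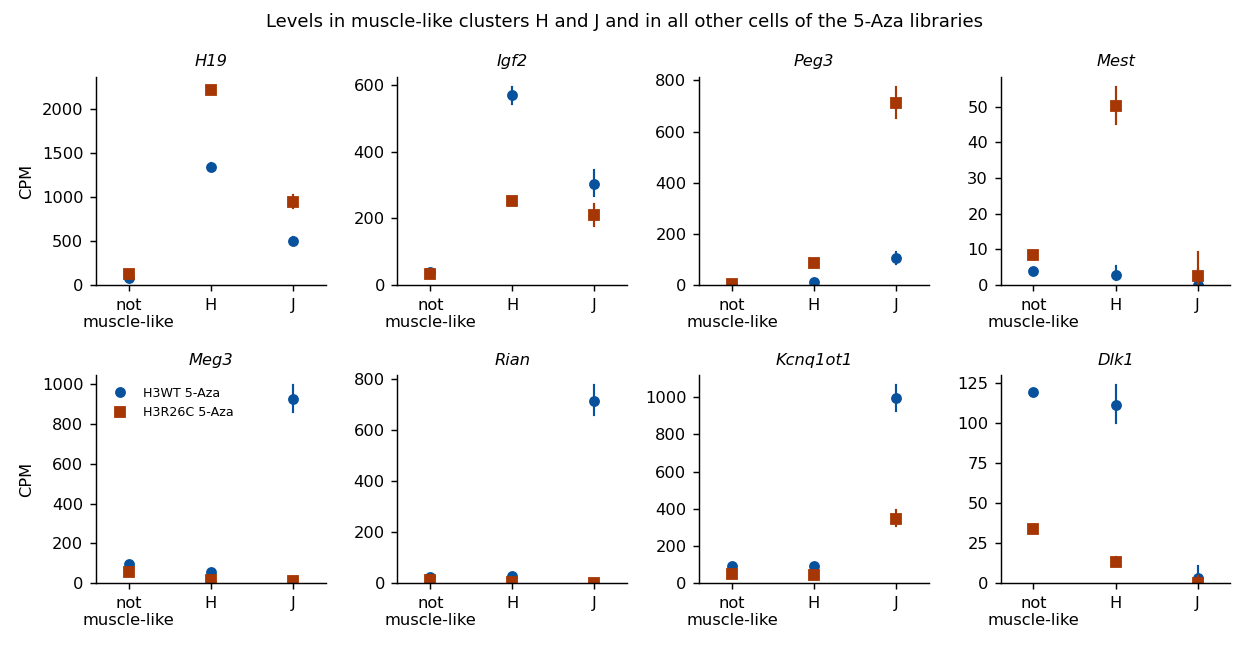
Levels in CPM of 8 imprinted genes in the cells that are not muscle-like and in the muscle-like clusters H and J of each 5-Aza library, with exact Poisson 95% intervals for H and J and a separate axis for each gene. Peg3 and Kcnq1ot1 are highest in J of both genotypes, H19 in H of both, and Meg3 and Rian in J of H3WT.

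Inside muscle-like cells, Mest was 20.1-fold (10.5 to 44.3) and Peg3 4.86-fold (4.02 to 5.92) higher in H3R26C, and H19 was 1.79-fold (1.73 to 1.85). The Mest ratio rests on 9 UMIs in H3WT. Its 369 UMIs in H3R26C lay in 23 of 398 cells, with up to 53 in a cell, which the counting interval does not cover. Igf2 stood at 0.481 (0.452 to 0.511), Dlk1 at 0.136 (0.108 to 0.171), Kcnq1ot1 at 0.271 (0.245 to 0.299) and Plagl1 at 0.272 (0.185 to 0.394). In cluster H alone the values for Igf2, Dlk1 and Meg3 were 0.441, 0.120 and 0.278, so that the lower Igf2 and Dlk1 levels did not rest on cluster J, while Kcnq1ot1 stood at 0.499 there. Dlk1 rested in good part on 1 cell of H3WT, which held 176 of the 350 Dlk1 UMIs of its cluster H. Without the cell with most Dlk1 UMIs in each library, an alternative chosen after seeing the data, the Dlk1 ratio was 0.203 (0.153 to 0.268) in muscle-like cells and 0.181 (0.136 to 0.239) in cluster H. Ndn at 1.93-fold (1.06 to 3.75) differed less between the genotypes here than in the other cells, where it was 5.43-fold. For Sgce, at 1.56-fold (1.04 to 2.42), the interval held the 2.14-fold of the other cells.

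Sgce, Plagl1 and Slc22a18 were lower in muscle-like cells of both genotypes. In H3WT they were the only 3 of 21 members that were lower, which is close to the 14.8% of all genes that were. Plagl1 was at 20.9 and 47.6 CPM in H3WT and at 5.68 and 27.3 CPM in H3R26C, Sgce at 7.82 and 21.4 and at 12.2 and 45.8 CPM, and Slc22a18 at 4.29 and 9.08 and at 0.989 and 6.05 CPM, each in muscle-like and then in other cells. Ndn was lower in muscle-like cells of H3R26C, at 6.80 and 21.1 CPM, and at 3.53 and 3.89 CPM in H3WT. Grb10, Igf2r, Airn, Ube3a, Gnas, Impact and Osbpl5 stayed within 2-fold in both.

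Other imprinted genes, the factors that keep imprints and the Igf pathway were read as lists of their own. Of 54 other imprinted genes in the files, 33 passed the level filter; after 5-Aza, 8 were higher and 0 lower in H3WT, where 6.38% and 0.537% of all genes were, and 10 were higher and 0 lower in H3R26C, where 8.54% and 4.69% were. Slc38a4, a paternally expressed amino acid transporter gene, was at 0.599, 16.1, 0.416 and 8.34 CPM in library order, Rhox5, a homeobox gene of the X chromosome, at 0.150, 27.1, 0.845 and 53.1 CPM, and Qpct, a glutaminyl cyclase gene, at 0.645, 5.36, 1.93 and 20.7 CPM. All 3 were below 2 CPM in both DMSO libraries and at least 2-fold higher after 5-Aza in both genotypes. Slc38a4 and Rhox5, below 1 CPM in both DMSO libraries, reached the level filter only through their 5-Aza levels, which also made up most of the mean of Qpct. The counts of 8 and 10 therefore depend in part on that filter. In DMSO 3 of these 33 genes were higher in H3R26C and 2 lower, where 3.79% and 1.44% of all genes were, and after 5-Aza 3 were higher and 0 lower, where 5.66% and 4.17% were.

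Of 16 imprint maintenance genes, 14 passed the level filter and none changed 2-fold with 5-Aza in H3WT or between genotypes. Of all genes, 6.38% were higher and 0.537% lower with 5-Aza in H3WT. Between genotypes 3.79% were higher and 1.44% lower in DMSO, and 5.66% and 4.17% after 5-Aza. At these shares few of 14 genes would be counted, so the count of 0 is close to them. Dnmt1 was at 38.7, 39.0, 51.7 and 46.1 CPM. Dnmt3b, a de novo methyltransferase, was lower after 5-Aza in H3R26C, where 4.69% of all genes were. It was at 3.27, 2.86, 3.35 and 1.46 CPM. Zfp57 was 4.32-fold and 3.34-fold higher in muscle-like than in other cells of H3WT and H3R26C. It was the 1 gene of the 14 that was higher there, where 7.08% and 5.53% of all genes were. Of 8 genes of the Igf pathway, 7 passed, and Irs2, an insulin receptor substrate, was lower after 5-Aza in both genotypes. It was at 36.4, 12.8, 26.1 and 3.69 CPM, where 0.537% of all genes were lower in H3WT and 4.69% in H3R26C. Igf1 was lower in muscle-like cells, at 0.328 of its level in other cells of H3WT and 0.257 in H3R26C. Of the 7 genes, 2 were lower there in H3WT and 1 in H3R26C, where 14.8% and 16.8% of all genes were.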

How the data were processed

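Droplet single-cell RNA-seq was made from 4 cultures of C3H 10T1/2 MPC, 1 library per condition. The authors ran Cell Ranger 6.1.0 (per the file headers) on mm10 and deposited its filtered UMI counts per gene and barcode; the labels also list Seurat 4. The filter of the study was applied to the deposited counts: at least 5000 UMIs, at least 1500 genes and at most 20% mt- UMIs. No doublets were removed.

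Counts were summed per library or cell class (Python 3.11.15, numpy 2.4.6, scipy 1.17.1, pandas 2.3.3, matplotlib 3.10.9). Levels have exact Poisson and ratios exact conditional binomial 95% intervals, and differences of log2 ratios delta-method intervals. Against 0 UMIs a floor of 3 UMIs per library was used. With 1 library per condition no test was made. Ratios, intervals and calls were tested on Poisson counts simulated from the library sums. That simulation held no single cells, so it does not cover UMIs concentrated in few cells.

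Clusters were made in R 4.3.3 with Seurat 5.3.0 and sctransform 0.4.2 (S and G2M scores regressed out, 20 components, resolution 0.2), with the members, 17 of which were among the 3000 variable genes, left out. A cluster was called skeletal muscle-like from at least 3 of 13 markers detected in at least 25% of its cells and raised by at least 2 on the log2 scale. All 32 members were accounted for, the 19 with at least 5 CPM in a library by their level in each; values of Mirg, Peg10, Cdkn1c, Asb4, Zdbf2, Phlda2, Snrpn and other rarer members were added after they were seen. Of the other lists, genes at least 2-fold apart in a comparison, and any imprint or Igf pathway gene, could be named. Members and lists were chosen with earlier results of these data known. Alternatives covered the cell filter, thinning, scaling, pseudocount, level filter, fold threshold and definition of muscle-like cells.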

Additional observations from a re-analysis of the deposited data

Results flagged for a closer look

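In the barcodes that the cell filter left out, some members stood above their level in the left-out barcodes of DMSO. H19 was at 639 CPM in those of H3WT 5-Aza and 911 CPM in those of H3R26C 5-Aza, against 29.9 and 79.2 CPM in those of H3WT and H3R26C DMSO. Igf2 was at 320 and 184 CPM, against 22.6 and 49.5 CPM. In H3WT 5-Aza, Peg3 was at 10.1 CPM and Peg10 at 5.58 CPM, against 0.328 CPM each in H3WT DMSO. The H19 UMIs per 100 muscle marker UMIs were 4.70 and 7.23 in the left-out barcodes of H3WT and H3R26C 5-Aza, near the 4.27 and 8.62 of the muscle-like cells; the part of muscle RNA in these levels was not tested further.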

How the results depend on the processing

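Over 12 alternative settings, 417 values were recomputed for the 55 differences of single members that reached 2-fold; 414 kept their direction and 365 stayed at least 2-fold apart. The Mest difference between responses turned to 0.22 with a pseudocount of 1 CPM, and Meg3 in muscle-like cells of H3WT to -0.79 with cluster H alone, an alternative chosen after seeing the data; there 4 members were higher and 1 lower. Thinning gave 2 lower members for H3R26C 5-Aza and 2 for H3R26C in DMSO, the stricter cell filter 2 for H3R26C 5-Aza, leaving out named clusters 1 for H3R26C after 5-Aza, and cells called G1 alone 0 for H3R26C 5-Aza and 1 for H3R26C in DMSO. The pseudocount gave 2 lower for H3R26C in DMSO and 2 smaller responses. The mean of per-cell CPM gave 2 lower for H3R26C in DMSO and 5 in muscle-like cells of H3WT, and a class with at least 6 of 13 muscle markers gave 0 there.

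At 1.5-fold the lower counts were 4 for H3R26C 5-Aza, 9 for H3R26C after 5-Aza, 11 for smaller responses and 5 in muscle-like cells of H3WT. At 3-fold they were 0, 1, 1 and 0, with 1 for H3R26C in DMSO and 2 higher for H3R26C after 5-Aza. A mean of at least 5 CPM left 2 higher in H3WT 5-Aza, 1 in H3R26C 5-Aza, 3 for H3R26C in DMSO, 3 after 5-Aza, and 0 larger and 2 smaller responses; no level filter gave 1 lower in H3WT 5-Aza, 8 higher in H3R26C 5-Aza and 2 larger responses. The shares of all genes given above belong to the main setting. The counts under alternative settings have no such share beside them and show only how the counts depend on the setting. The cause of these shifts was not tested. Counts for Peg3 and Mest in DMSO (4 to 102 UMIs) limit the precision of their ratios. Leaving out the cell with most UMIs of a gene in each library was also chosen after seeing the data. It reversed none of the 20 genotype differences recomputed in muscle-like cells and cluster H, and moved 2 beyond their counting interval. Differences left with 3 UMIs or fewer in a library, including those of Mest and Mirg, were not recomputed, so the check does not cover them. No paired analysis was possible because only 1 library was made for each condition.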

Other observations

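Of the 11 members under the level filter, Asb4 came nearest, with a mean of 0.399 CPM, and Mirg, with 2.03 CPM, was the lowest inside it. Asb4 had 9, 3, 10 and 148 UMIs in H3WT DMSO, H3WT 5-Aza, H3R26C DMSO and H3R26C 5-Aza, in 92 cells of the last library with at most 6 UMIs each. Phlda2, a maternally expressed inhibitor of placental growth, had 34 UMIs in 27 cells of H3R26C 5-Aza, none of them muscle-like; against the floor of 3 UMIs in H3WT 5-Aza it was at least 8.63-fold higher. Zdbf2 had 0 UMIs in both DMSO libraries and 21 and 17 after 5-Aza in H3WT and H3R26C, at least 7.21-fold and 4.30-fold higher. Nnat had 5, 6, 7 and 15 UMIs, and Nap1l5 had 2 UMIs, both in H3R26C 5-Aza.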
